A study of Triticum aestivum with 15 samples.

Results

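In leaves of bread wheat, 123 genes were selected because their transcripts stood higher after 1 day without iron than in every other leaf library of the study. The level used was CPM, the count of a gene scaled so that all counts of a library add up to the same fixed sum. A gene entered when its identifier was of the high-confidence class, its mean over the 3 day 1 libraries was at least 5 CPM, and its lowest day 1 value was at least 1.5 times its highest value among the 9 leaf libraries of days 0, 7 and 11. These 123 genes were taken from 269207 listed identifiers, of which 107836 are high-confidence, and they make up 0.572% of the 21493 high-confidence genes that reached the level of 5 CPM on day 1. They were chosen by their leaf values, so their height on day 1 is given below as a description. The values of days 0, 7 and 11 entered the choice as an upper limit that is the same for all 3 days, while levels in roots and places on the chromosomes were not used.

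The plants were wild-type seedlings of the cultivar Fielder, a spring wheat much used for transformation, grown in hydroponic boxes on 50 µM iron (NaFe3+EDTA) for 12 days and then on 0 µM iron for 11 days. Polyadenylated RNA was sequenced from 5 groups of 3 libraries: the first leaf at the switch of solution (day 0), the first leaf at day 1, the third leaf at day 7, the pooled leaves from the third to the fifth at day 11, and the roots at day 11. The study's design text names 3 plants by number and these numbers recur in the library names of every group, so libraries are called plants 1, 2 and 3. Each value stands for about 50 mg of tissue. The day 0 group is the sole iron-supplied group, since no later library with iron was analysed here. Time, plant age and the change of solution therefore differ together with iron supply, from day 7 leaf position differs as well, and no source used here gives the hour of harvest. In bulk tissue, fewer cells of a type and less RNA per cell cannot be told apart.

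Iron is needed in leaves for photosynthetic electron transport, for haem proteins and for iron-sulphur clusters, and much of the iron of a leaf cell is held in its chloroplasts. Grasses take iron up by releasing phytosiderophores from their roots and importing the iron complexes, and growing leaves also draw on iron moved out of older tissue. Bread wheat is hexaploid, and most of its genes have related copies on its A, B and D subgenomes. The identifiers carry a chromosome and a subgenome and no function, and 0 of them were found in the name table, so each gene is called by its identifier and no role is assigned to any of them.

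Library totals ran from 15434838 to 25552816 counts, and where a gene had 0 counts throughout a group, 3 counts summed over the group served as its floor (0.0548 CPM on day 0, 0.0486 CPM in the day 11 leaves and 0.0433 CPM in roots, for counting error only). On day 7, plant 3 held the highest of the 3 values for 105 of the 123 genes (85.4%), against 40.2% of the 21493 high-confidence genes at 5 CPM or more on day 1. The background depends on the root level: among those of the 21493 genes with a root mean under 5 CPM, plant 3 was highest in 69.8%, against 77 of 94 selected genes (81.9%), and among those at 5 CPM or more in 29.2%, against 28 of 29. The difference was not tested, and counts of calls among leaves are given with and without that library. On day 0, plant 1 held the limiting value, the highest of all 9 other leaf libraries, for 39 genes.

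The day 1 means ran from 5.04 to 3912 CPM with a median of 19.3, and 85 genes reached 10 CPM, 14 reached 100 CPM and 6 reached 1000 CPM. CPM are not divided by gene length, so a high value shows a large part of the library and not by itself more transcripts than another gene. The ratio of the lowest day 1 value to the highest other leaf value ran from 1.5 to 8.75 with a median of 1.71, and 36 genes reached 2, 11 reached 3 and 4 reached 5. A spike from nothing was not what most of these genes showed. None of the 123 was at 0 in all 9 other leaf libraries, and their median on day 0 was already 5.69 CPM. Day 1 means were 1.62 to 114 times the day 0 means (median 2.63, over the 122 genes with more than 3 counts on day 0), with 96 genes at 2 times or more, 34 at 4 times or more and 10 at 10 times or more. Within day 1 the 3 plants lay close together, with a median coefficient of variation of 15.1%, against 27.4% within day 0, a closeness that the limit on the lowest day 1 value favours.

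**Figure D1:**
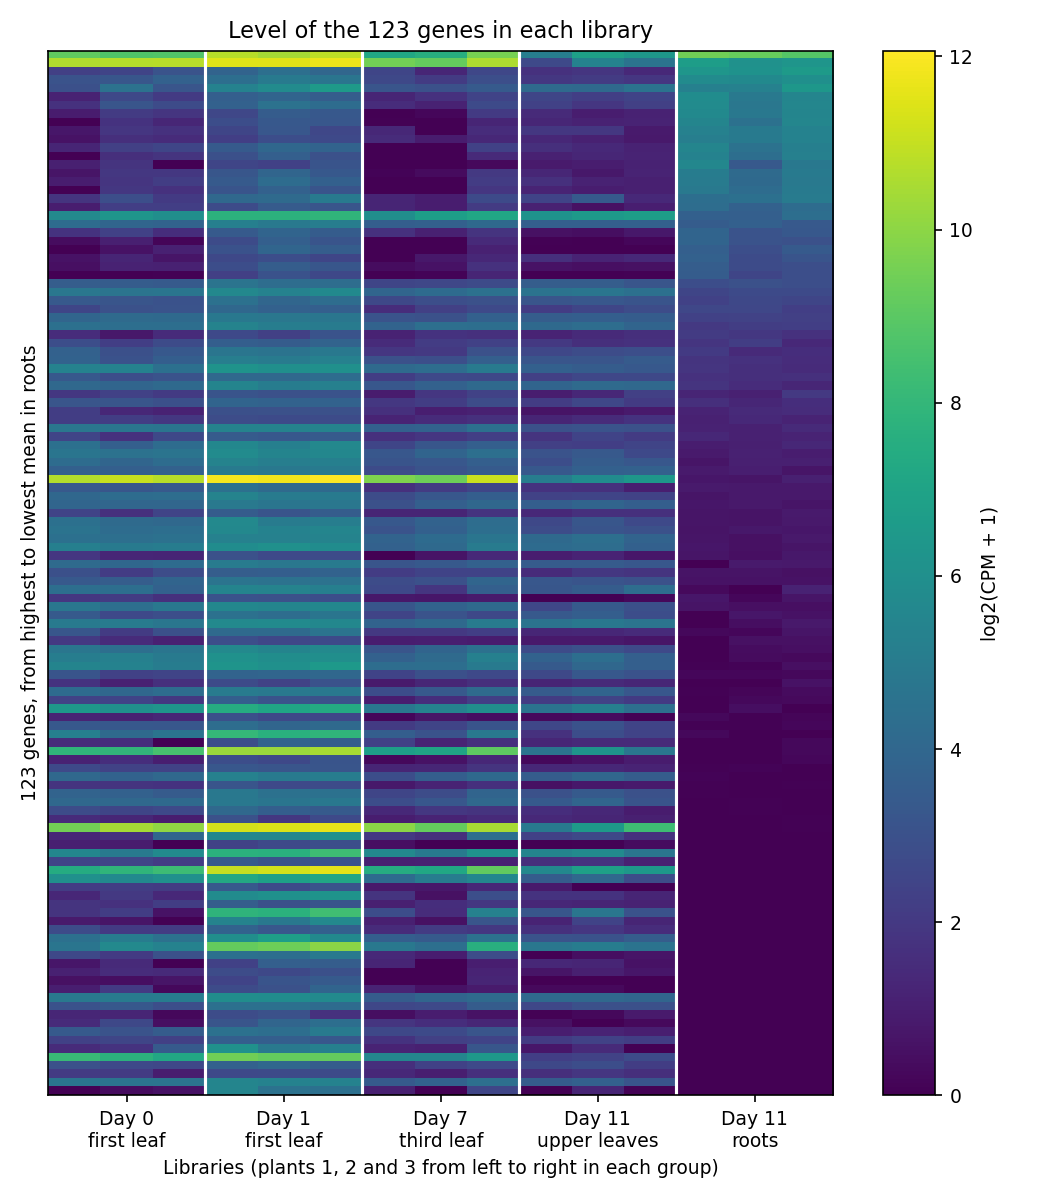
Level of each of the 123 genes (rows, from the highest to the lowest root mean) in each of the 15 libraries (columns, plants 1 to 3 in each group), as log2 of CPM plus 1. The day 1 columns are the brightest leaf columns by choice of the genes, plant 3 of day 7 is brighter than plants 1 and 2, and root levels run from 594 CPM at the top to 0 in the lowest 31 rows.

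The limit of the choice falls inside a dense range of genes. Just inside it, TraesCS3A02G523700 had a lowest day 1 value of 40.1 CPM against 26.7 CPM in plant 1 on day 0, TraesCS4D02G214300 had 47.6 against 31.6 CPM, and TraesCS3A02G334800 had 25.8 against 17.1 CPM. Just outside it, TraesCS4B02G293700 had 17.7 against 11.8 CPM, TraesCS2B02G051600 had 31.8 against 21.3 CPM and TraesCS2A02G527700 had 7.74 against 5.19 CPM. The same criteria set for another stage gave 151 genes for day 0, 149 for day 7 and 3076 for the day 11 leaves, and the mirrored criteria gave 414 genes that were lowest on day 1.

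The selected genes took 1.91%, 1.88% and 2.26% of all counts in the day 1 libraries of plants 1, 2 and 3. They took 0.649%, 0.755% and 0.709% on day 0, 0.369%, 0.315% and 0.860% on day 7, and 0.0884%, 0.137% and 0.133% in the day 11 leaves. In roots the shares were 0.169%, 0.126% and 0.143%. Most of the share lay in few genes: the 8 with the highest day 1 means summed to 15410, 15374 and 18650 CPM in the day 1 libraries, and the other 115 to 3728, 3444 and 3937 CPM. In the day 11 leaves those 8 summed to 207, 530 and 647 CPM and the other 115 to 677, 845 and 682 CPM, so the 8 no longer held most of the share.

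**Figure D2:**
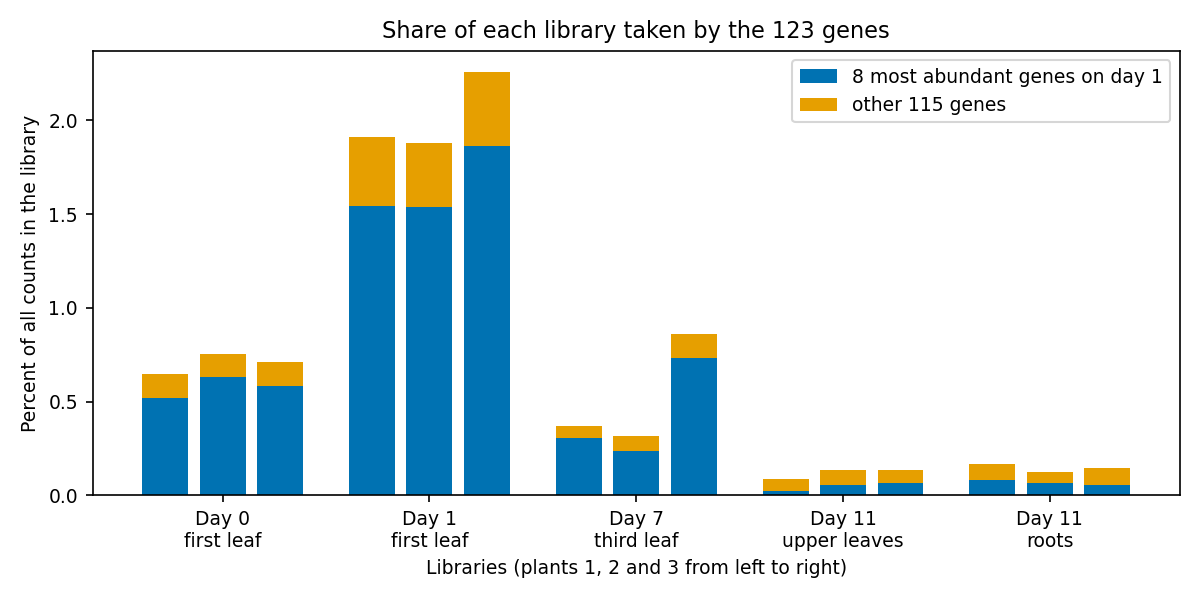
Percent of all counts in each library taken by the 123 genes, split into the 8 with the highest day 1 means (blue) and the other 115 (orange), with plants 1 to 3 from left to right in each group. The day 1 bars reach 1.88% to 2.26%, the day 0 bars stop at or below 0.755%, plant 3 of day 7 stands at 0.860%, and the day 11 leaf and root bars lie at or below 0.169%.

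The gene with the highest day 1 mean was TraesCS4B02G348600 on chromosome 4B, with 3834, 3621 and 4283 CPM in plants 1, 2 and 3. It stood at 1650, 2088 and 1756 CPM on day 0, at 850, 665 and 2184 CPM on day 7, and at 33.1, 58.3 and 83.4 CPM in the day 11 leaves. It was thus abundant in the iron-supplied leaf too, with a day 1 mean 2.14 times that of day 0, and low in all 3 day 11 libraries. TraesCS3B02G181300 ran the same course, from 1576, 1691 and 1733 CPM on day 0 to 2815, 2872 and 3366 CPM on day 1 and 5.43, 39.8 and 23.4 CPM in the day 11 leaves. TraesCS7D02G375700 went from 717, 1369 and 1055 CPM on day 0 to 2470, 2648 and 3106 CPM on day 1, and its day 11 leaves differed widely between plants at 30.7, 93.6 and 317 CPM. For these 3 genes the day 7 values of plant 3 (2184, 1529 and 1430 CPM) lay beside the day 0 values, whereas plant 2 had 665, 590 and 598 CPM.

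Other abundant genes stood further above their day 0 level. TraesCS1D02G149800 on chromosome 1D had 2069, 2408 and 3035 CPM on day 1 against 172, 236 and 311 CPM on day 0, a 10.5-fold difference of the means. The next identifier on the chromosome, TraesCS1D02G149700, had 584, 672 and 990 CPM on day 1 against 24.8, 49.4 and 39.5 CPM on day 0, a 19.8-fold difference. Both genes again showed the high plant 3 on day 7, at 574 and 196 CPM, against 179 and 147 CPM and 27.1 and 20.3 CPM in plants 1 and 2. Among the 122 genes with more than 3 counts on day 0, TraesCS1B02G367500 had the largest fold, 114 times in mean, from 2.52, 3.61 and 0.518 CPM on day 0 to 226, 207 and 326 CPM on day 1. TraesCS3B02G385400, outside that range, had 1 count on day 0 and 362 on day 1. Day 1 did not overlap with any other leaf library in these genes, which the criteria required.

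The other 4 of the 10 genes with the highest day 1 means lay between these patterns. TraesCS4D02G357100 averaged 473 ± 65 CPM on day 0 and 1647 ± 248 on day 1 (SD, n = 3). TraesCS4A02G431300 averaged 285 ± 78 and 1287 ± 142 CPM, and TraesCS6A02G094300 averaged 219 ± 68 and 620 ± 60 CPM (SD, n = 3 each). TraesCS3A02G044000 averaged 43.6 ± 12.1 CPM on day 0 and 244 ± 65 on day 1 (SD, n = 3), and unlike the other three it was about as high on day 11 (40.4 ± 15.1) as on day 0.

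**Figure D3:**
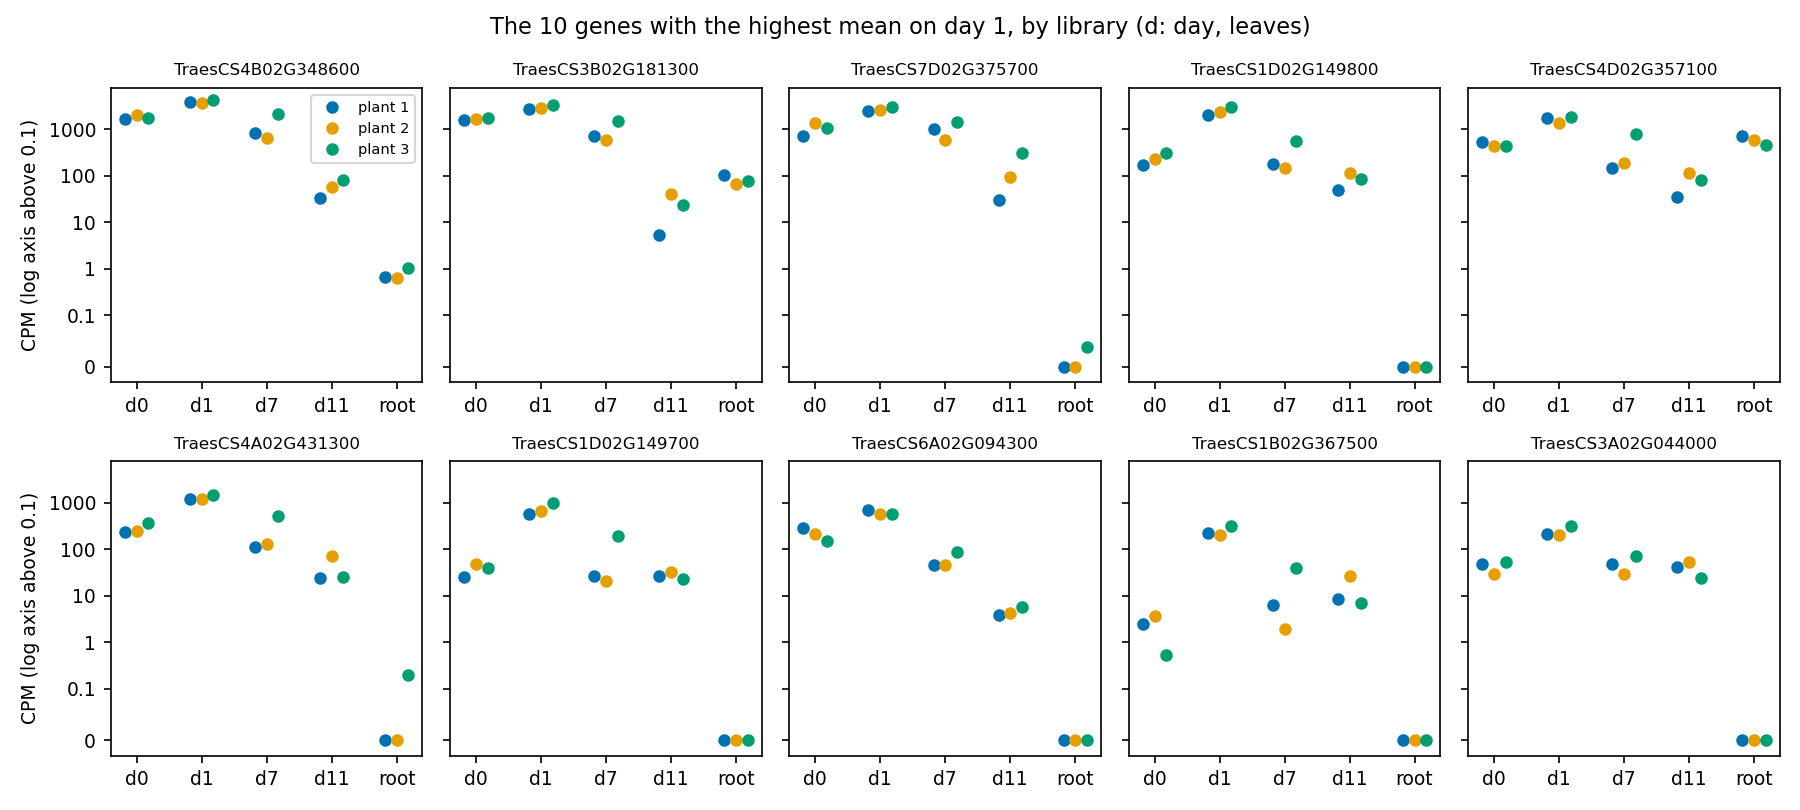
CPM of the 10 genes with the highest day 1 means in each library (d0, d1, d7 and d11 are leaves of days 0, 1, 7 and 11; colours are plants), on a log axis above 0.1 and with 0 shown at the foot. Day 1 is highest in every panel by choice of the genes; TraesCS4D02G357100 and TraesCS3B02G181300 are the genes of the 10 that also lie above 10 CPM in roots.

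The ratio that sets day 1 apart was largest in TraesCS1B02G170200, with 55.9, 65.2 and 71.5 CPM on day 1 and at most 6.39 CPM, in plant 3 of day 7, elsewhere in leaves. TraesCS3B02G009600 followed at a ratio of 6.15, with 7.30, 14.4 and 10.9 CPM on day 1 against 0, 0.515 and 1.17 CPM on day 0 and 0 in every day 11 leaf library. Its highest other leaf value, which set the ratio, lay on day 7. TraesCS1A02G152800 had a ratio of 5.64, from 35.7, 16.9 and 24.0 CPM on day 0 to 259, 201 and 239 CPM on day 1. Plant 3 of day 7 set the upper limit in 5 of the next 7 genes. They are TraesCS1B02G367500 (207 to 326 CPM on day 1, 38.8 in that library), TraesCS1B02G367800 (27.4 to 49.4 CPM on day 1, 8.03 in that library), TraesCS6D02G339100 (21.1 to 43.3 CPM, 4.79 in that library), TraesCS3D02G346700 (5.66 to 11.8 CPM, 1.73 in that library) and TraesCS1D02G149800. TraesCS3D02G065000 and TraesCS6B02G332800 complete the 10 highest ratios at 3.85 and 3.53, and their highest other value was on day 0.

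In a test across all genes, edgeR's quasi-likelihood test called 43 of the 123 genes higher on day 1 than on day 0 at a Benjamini-Hochberg adjusted p under 0.05. Over all 62841 genes tested, 0.759% were called higher and 0.535% lower. The selection used this contrast, so nothing is read from the count. It moved to 94 with DESeq2, to 21 with the plant as a block and to 0, 0 and 6 without plant 1, 2 or 3, and 0 genes were called lower (0 at an unadjusted p under 0.05 and 0 by DESeq2). Calls over all genes tested moved too. The 477 higher calls became 2085 with DESeq2, 195 with the block and 0, 0 and 88 without plant 1, 2 or 3. All 123 passed the filter on low counts in the leaf libraries.

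The criteria set the same upper limit on days 0, 7 and 11 and give no order among them, but they remove every gene that was high on any of these days, a limit that the background genes do not carry. Counts and medians among these 3 days are therefore descriptions of the chosen genes, and nothing is read from their distance to the background. Day 0 held the highest of the 9 other leaf values for 87 genes, day 7 for 29, of which 27 in plant 3, and day 11 for 7. By group means, 64 genes declined from day 0 through day 7 to day 11, 36 went from day 0 through day 11 to day 7, and the other 23 had another order. Without plant 3 of day 7 these counts were 51, 55 and 17, and without plant 1 of day 0 they were 65, 34 and 24. The median gene stood at 6.65, 5.25 and 6.67 CPM in plants 1, 2 and 3 on day 0, at 2.96, 3.29 and 5.52 CPM on day 7 and at 3.43, 4.26 and 3.52 CPM in the day 11 leaves.

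Against day 0, the third leaf of day 7 had 40 of the 123 genes lower (32.5%) and 0 higher by edgeR (3 higher at an unadjusted p under 0.05 and 3 by DESeq2). All genes tested gave 13.9% lower and 14.3% higher, and the high-confidence genes at 5 CPM or more on day 1 gave 25.9% lower and 14.1% higher. The median log2 fold change of the 123 genes was -0.83, against -0.10 for the 21493 genes, and 112 of the 123 had a negative sign. The number of lower calls was 83 when plant 3 of day 7 was left out, 31 when plant 1 of day 0 was, and 14, 3 and 70 when plant 1, 2 or 3 was left out of all groups. Over all genes tested, the 8726 lower calls became 10762, 8476, and 4316, 1316 and 9366 in these fits.

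Among the called genes that moved alike in each plant, the largest falls by day 7 were near 4 times. TraesCS4B02G016500 had 2.72, 3.24 and 2.14 CPM on day 0 and 0.728, 0.639 and 0.822 CPM on day 7, so the groups did not overlap (log2 fold change -2.09 ± 0.45 SE, edgeR adjusted p = 0.0071). TraesCS2A02G339100 had 4.38, 4.48 and 3.43 CPM against 1.11, 1.18 and 1.14 CPM (-2.05 ± 0.26 SE, edgeR adjusted p = 0.00054). TraesCS6A02G094300 had 287, 218 and 151 CPM against 45.3, 45.9 and 86.7 CPM (-2.07 ± 0.31 SE, edgeR adjusted p = 0.0011). Without plant 2 the calls of TraesCS4B02G016500 and TraesCS6A02G094300 were lost (edgeR adjusted p = 0.135 and 0.0699, against 0.0038 and 0.0002 as the lowest over their edgeR alternatives), with log2 fold changes of -1.83 and -1.89.

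In the day 11 leaves, 75 of the 123 genes (61.0%) were lower than on day 0 and 0 were higher (0 at an unadjusted p under 0.05 and 0 by DESeq2). All genes tested gave 22.7% lower and 21.6% higher, and the 21493 genes at 5 CPM or more on day 1 gave 39.6% lower and 21.6% higher. The median log2 fold change was -1.36 against -0.25 for those genes. Leaving out a plant gave 53 to 72 lower calls, with 73 without plant 1 of day 0 and 86 without plant 3 of day 7, where 1 gene was called higher. Over all genes tested, the 14295 lower calls became 9240 to 11842, 13554 and 14909 in these fits. Of the 123 genes, 38 were lower than day 0 on both day 7 and day 11, 37 on day 11 and not on day 7, 2 on day 7 and not on day 11, and 46 in neither test. Day 1 means were 6.04 times the day 11 leaf means in the median (120 genes with more than 3 counts on day 11).

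The 3 steepest falls to day 11 were in genes of very unlike level. TraesCS3B02G181300, whose day 0 and day 11 values are given above, fell by 6.66 ± 0.72 SE on the log2 scale (edgeR adjusted p = 3.3e-05). TraesCS6A02G094300 had 3.77, 4.16 and 5.84 CPM in the day 11 leaves, far below its 151 to 287 CPM on day 0 (-6.04 ± 0.37 SE, edgeR adjusted p = 9.6e-07). TraesCS5A02G073700, a gene of low level with 0.453, 0.361 and 0.583 CPM on day 0, was at 0 in all day 11 leaves, at least 9.40-fold lower against the floor over the group (edgeR adjusted p = 0.048). That call was lost under 4 of its alternatives, with an edgeR adjusted p of 0.001 to 0.131 over those run in edgeR.

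**Figure D4:**
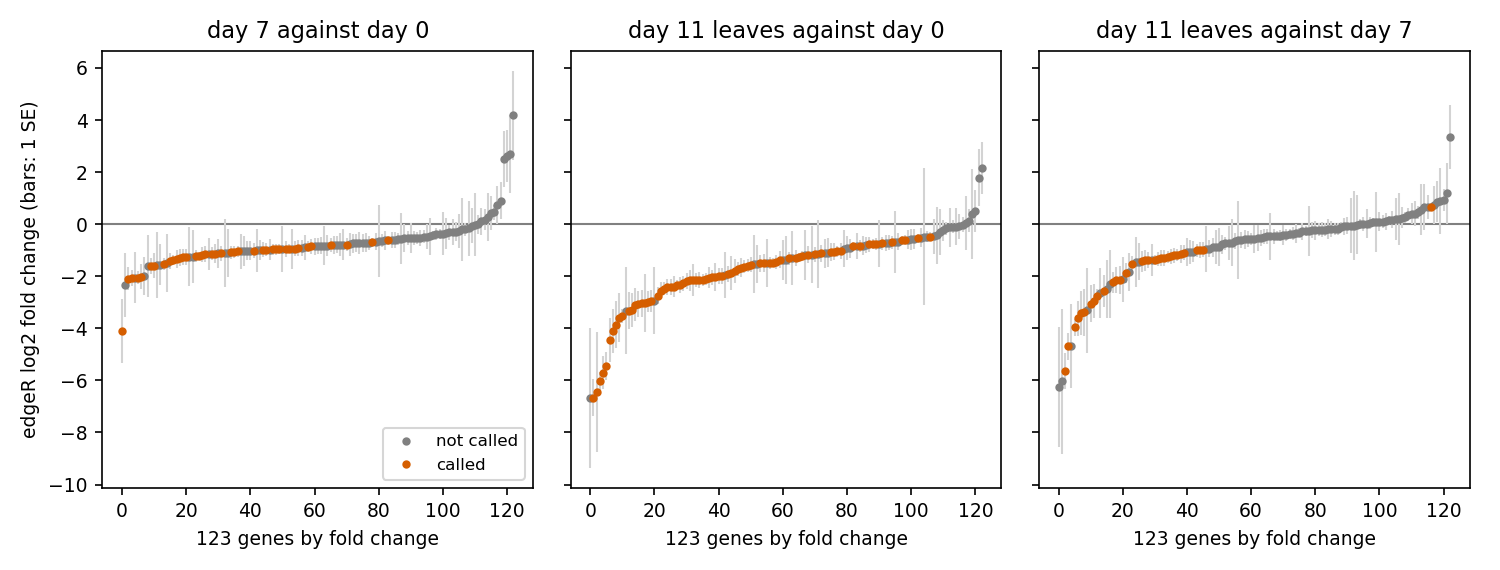
edgeR log2 fold change of the 123 genes, ordered within each panel, for day 7 against day 0, day 11 leaves against day 0 and day 11 leaves against day 7 (bars, 1 SE; orange, adjusted p under 0.05; n = 3 libraries a group). Called genes lie below 0 in the first and second panels (40 and 75), and in the third 31 lie below and 1 above.

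Between the day 7 and day 11 leaves, 31 of the 123 genes were lower on day 11 (25.2%) and 1 was higher (0.813%). All genes tested gave 13.2% lower and 8.74% higher, and the 21493 genes at 5 CPM or more on day 1 gave 25.3% lower and 11.7% higher. The higher gene was TraesCS3D02G106200, with 4.80, 4.92 and 5.71 CPM on day 7 and 10.6, 10.8 and 8.21 CPM on day 11 (log2 fold change 0.67 ± 0.16 SE, edgeR adjusted p = 0.012). That call was lost without plant 1 or plant 2 (edgeR adjusted p = 0.141 and 0.223, within 0.0018 to 0.223 over its edgeR alternatives), and without plant 3 of day 7 there were 12 higher and 25 lower genes. Leaving out a plant from all groups gave 10 to 15 lower and 0 to 6 higher calls. Over all genes tested, 8277 lower and 5490 higher calls became 2373 to 5938 lower and 984 to 4946 higher when a plant was left out. They became 8247 lower and 6322 higher without plant 3 of day 7. TraesCS3B02G181300, TraesCS4B02G348600 and TraesCS6A02G094300 fell most, with log2 fold changes of -5.64 ± 0.68 SE, -4.68 ± 0.51 SE and -3.97 ± 0.34 SE (edgeR adjusted p = 0.00032, 0.00018 and 4.5e-05).

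The scaling of the libraries bears on these counts, because normalization factors were 0.82 to 0.88 on day 1 and 1.24 to 1.28 in the day 11 leaves. With plain library sizes, the median log2 fold change of all genes moved from 0.12 to 0.60 for day 11 against day 0, and the share of higher among called genes moved from 48.7% to 72.2%. For day 7 against day 0 the median moved from 0.09 to 0.31 and that share from 50.8% to 67.9%, for day 11 against day 7 from -0.07 to 0.19 and from 39.9% to 66.3%, and for day 1 against day 0 from -0.01 to -0.10 and from 58.7% to 36.5%. Of the 123 genes, 30 were then lower on day 7, 55 on day 11 and 25 on day 11 against day 7, with 0, 1 and 1 higher. The criteria remove genes that were high on these days under either scaling, so nothing is read from the direction of these calls.

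Roots were not part of the choice, and the 123 genes were divided there. In roots, 31 genes (25.2%) had 0 counts in all 3 libraries, against 5.45% of the 21493 high-confidence genes at 5 CPM or more on day 1. A mean of at least 1 CPM in roots was reached by 48 genes (39.0%), against 85.6% of those genes, and the median root mean was 0.522 CPM against 13.9 CPM. Of these 48 genes, 29 (23.6% of the 123) had a root mean of 5 CPM or more, which 72.9% of the 21493 genes reached. In 100 genes every root library lay below every day 1 leaf library, and in 14 every root library lay above every day 1 leaf library, so day 1 is the peak among leaves and not among all libraries for those 14. The criteria chose genes high on day 1, which favours roots below day 1. The same was not counted over the 21493 genes, so the 100 and the 14 are descriptions only. The criteria also remove genes with steady leaf levels, which the 21493 genes include. How far this shifts the root shares and the median from the background was not tested.

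Within the selected genes alone, those sharply set off on day 1 lay at both ends of the root range. The ratio was itself a criterion of the choice, so the counts by root level are descriptions only. The background is spread unevenly over these levels. Of the high-confidence genes at 5 CPM or more on day 1, 92.0% had a root mean of at least 0.1 CPM and 72.9% of at least 5 CPM. No share of the background was computed for each level. A ratio of at least 2 was reached by 19 of the 44 genes with a root mean under 0.1 CPM, 3 of the 31 from 0.1 to 1 CPM, 1 of the 19 from 1 to 5 CPM and 13 of the 29 at 5 CPM or more. TraesCS1D02G149800, TraesCS1D02G149700 and TraesCS6A02G094300, the most abundant of the 31, had 0 counts in every root library, and so had TraesCS1B02G367500, TraesCS1B02G170200 and TraesCS3A02G044000. Among all 10 genes with the highest day 1 means, TraesCS4D02G357100 was the highest in roots, with 709, 603 and 471 CPM against 34.5, 113 and 82.1 CPM in the day 11 leaves of the same plants. TraesCS3B02G181300 had 104, 68.0 and 78.1 CPM in roots, and TraesCS4B02G348600 had 0.653, 0.628 and 1.06 CPM. The next highest in roots were TraesCS1D02G258800 (81.2, 69.5 and 93.5 CPM), TraesCS1B02G269400 (55.7, 51.7 and 62.9 CPM) and TraesCS3B02G448100 (37.8, 38.9 and 82.3 CPM).

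**Figure D5:**
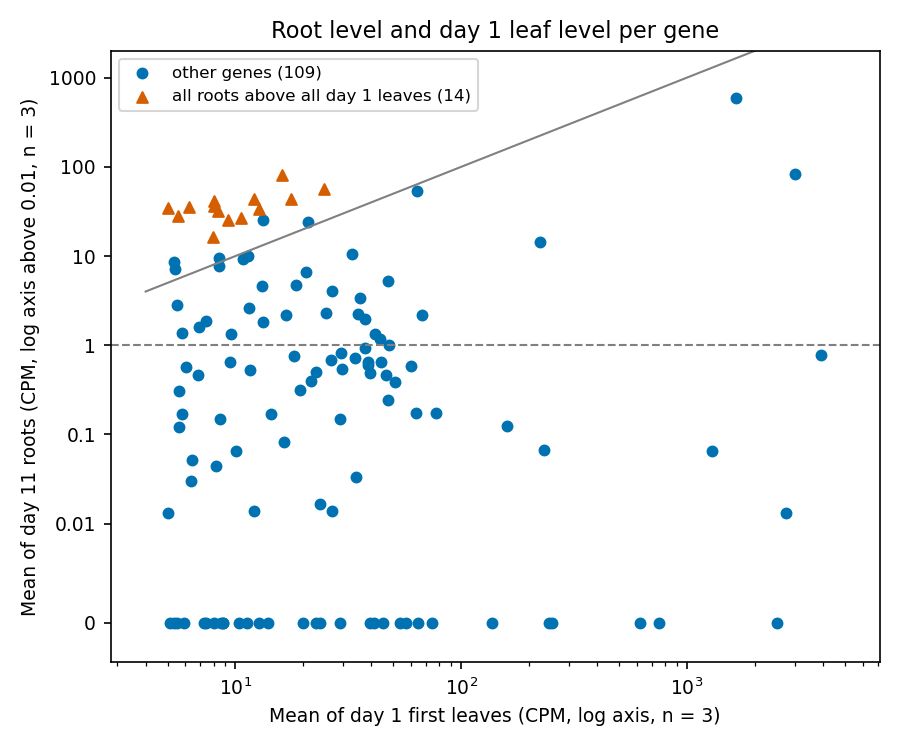
Mean CPM in day 11 roots against mean CPM in day 1 first leaves for the 123 genes (n = 3 libraries each), both on log axes with 0 at the foot. The solid line marks equal levels and the dashed line 1 CPM; 14 genes (triangles) have every root library above every day 1 leaf library, and 31 genes lie at 0 in roots.

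For roots against the leaves of the same day and plants, 110 of the 123 genes had enough counts to be tested by edgeR, and the criteria hold down the leaf side alone. Of the 110, 76 were lower in roots (69.1%) and 26 higher (23.6%). All 67922 genes tested gave 32.7% lower and 35.7% higher, and the genes at 5 CPM or more on day 1 gave 49.5% lower and 26.2% higher. The median log2 fold change was -3.12 against -0.31 for the latter, and leaving out a plant gave 74 to 78 lower and 25 or 26 higher calls. Over all genes tested, leaving out a plant gave 18673 to 21411 lower and 21221 to 23096 higher calls. The criteria act on leaf values, and how far they shift these shares from the background was not tested.

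Among genes higher in roots, TraesCS3B02G009600 was at 0 in all day 11 leaves and had 11.6, 6.53 and 9.74 CPM in roots, at least 189-fold higher against the floor over the group (edgeR adjusted p = 5.2e-05). TraesCS3D02G346700 had 13.7, 7.62 and 7.01 CPM in roots and 0.0490, 0 and 0.151 CPM in leaves (log2 fold change 6.95 ± 0.58 SE, edgeR adjusted p = 2.8e-05). TraesCS3B02G385400 had 488 counts in roots and 1 in leaves, a ratio of 434 per library size with an exact (Clopper-Pearson) 95% interval of 77.5 to 17178 that covers counting error only and not the spread between plants. Among genes lower in roots, TraesCS1D02G149800 was at least 1935-fold lower and TraesCS3A02G044000 at least 943-fold lower against the floor over the root libraries (edgeR adjusted p = 3.9e-05 and 4.2e-05). TraesCS7D02G375700 had 1 root count against 8935 in leaves, a ratio of 10046 with an interval of the same kind of 1803 to 396833.

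How the plants ranked was described apart for the genes with root transcripts. Of the 29 genes with a root mean of 5 CPM or more, 20 were highest on day 1 in plant 2, against 20.5% of the 15670 high-confidence genes that reached 5 CPM both on day 1 and in roots. Of the other 94 genes, 9 (9.57%) were highest in plant 2 on day 1, 51 in plant 1 and 34 in plant 3, where 24.8% of the 5823 high-confidence genes at 5 CPM or more on day 1 and under 5 CPM in roots were highest in plant 2. On day 7, 28 of the 29 (96.6%) and 77 of the other 94 (81.9%) were highest in plant 3, against 29.2% and 69.8% of these background genes. On day 0 plant 1 had a median of 1.06 CPM for the 29 against 3.71 and 3.11 CPM in plants 2 and 3. It was the highest plant on day 0 for 4 of the 29, against 40.9% of the 15670 genes. In roots the order was another one, with 17 of the 29 highest in plant 1 and 3 in plant 2. All 29 genes were read from the same libraries, so the counts describe 3 plants and were not tested.

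Some of these genes lay at like places on related chromosomes and had like values. The 14 with roots above day 1 leaves include 3 genes on chromosomes 3A, 3B and 3D at 52.7% to 53.3% of the identifier order of their chromosomes, and 3 on 5A, 5B and 5D at 38.5% to 40.2%. They are named here after their values were seen. TraesCS3A02G289900, TraesCS3B02G324500 and TraesCS3D02G289600 averaged 12.8, 17.6 and 12.1 CPM on day 1 and 34.0, 43.0 and 43.5 CPM in roots. TraesCS5A02G222500, TraesCS5B02G221600 and TraesCS5D02G230300 averaged 8.02, 8.03 and 8.37 CPM on day 1 and 36.5, 41.2 and 32.1 CPM in roots. All 6 were highest on day 1 in plant 2 and lowest in roots in plant 2, as with TraesCS5A02G222500 at 6.11, 9.15 and 8.80 CPM on day 1 and 43.3, 21.5 and 44.7 CPM in roots.

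Chromosomes 1A, 1B and 1D each carried a gene with root transcripts and, after it, one or more at or near 0 in roots, a pattern singled out after the values were seen. Counting high-confidence identifiers along the chromosome, TraesCS1A02G149300 was number 1467 and TraesCS1A02G152800 number 1500 on 1A. TraesCS1B02G167200 was number 1641 and TraesCS1B02G170200 number 1671 on 1B, and TraesCS1D02G146600 was number 1457, before TraesCS1D02G149700 and TraesCS1D02G149800 at 1486 and 1487, on 1D. The earlier genes averaged 25.2, 25.5 and 26.4 CPM in roots and 9.27, 13.3 and 10.6 CPM on day 1. The later ones were at or near 0 in roots (0.0670 CPM in TraesCS1A02G152800, 0 in the others) and averaged 233, 64.2, 749 and 2504 CPM on day 1. Nothing in the files pairs genes across subgenomes, so whether these are copies of each other is not known, and no source used here says how reads that fit more than 1 copy were counted, which makes the level of each copy uncertain.

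Across the set, 51 genes could be chained into 20 groups of the same chromosome group on different subgenomes, each gene within 1% of the identifier order of at least 1 other, and 4 of these groups reached all 3 subgenomes. Besides those of chromosomes 3 and 5, these were TraesCS1A02G427200, TraesCS1B02G462500 and TraesCS1D02G437300, at 6.38, 5.61 and 6.02 CPM on day 1, and TraesCS2A02G391600, TraesCS2B02G410100 and TraesCS2D02G389900, at 33.9, 38.6 and 48.0 CPM, named as the other groups that reached all 3. Unlike the groups of chromosomes 3 and 5, both had root means of 1.00 CPM or less and were highest on day 1 in plant 1. Some of the groups on fewer subgenomes joined genes of unlike level. TraesCS1A02G149300 was joined with TraesCS1D02G149700 and TraesCS1D02G149800, and TraesCS1A02G152800 with TraesCS1B02G167200 and TraesCS1B02G170200, while TraesCS1D02G146600 was in no group. The groups by place thus cut across the earlier and later genes described above for chromosomes 1A, 1B and 1D. How many genes would be chained by place alone was not computed, so a like place does not show that genes are copies. The A, B and D subgenomes held 37, 40 and 45 of the 123 genes (30.1%, 32.5% and 36.6%), against 33.2%, 32.5% and 33.5% of the genes at 5 CPM or more on day 1, and 1 gene had no chromosome. Chromosome groups 1 and 5 held 27 genes each, 0.929% and 0.776% of their genes at that level, and group 7 held 4, or 0.139%.

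Few members lay side by side. In 4 places members lay within 3 high-confidence identifiers of each other, with 9 genes in all. TraesCS5A02G094700, TraesCS5A02G094900 and TraesCS5A02G095200 averaged 8.82, 8.76 and 5.34 CPM on day 1, and of these TraesCS5A02G095200 alone had root counts (12.2, 5.82 and 7.71 CPM). TraesCS1B02G367500 lay near TraesCS1B02G367800 (253 and 39.3 CPM on day 1, both at 0 in roots), and TraesCS5D02G196200 beside TraesCS5D02G196300 (10.4 and 77.2 CPM). The fourth place holds TraesCS1D02G149700 and TraesCS1D02G149800.

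Of 239 adjoining high-confidence identifiers that are not members, 119 averaged at least 1 CPM on day 1, and 12 of these (10.1%) had every day 1 library above every other leaf library, against 4.26% of all 38787 high-confidence genes at that level, a difference that was not tested. Both neighbours of TraesCS6A02G094300 were among them, at 587 and 181 CPM on day 1 against 302 and 91.8 CPM on day 0, and both, like it, were at 0 in roots. TraesCS1B02G170100, beside TraesCS1B02G170200, averaged 237 CPM on day 1 against 68.3 CPM on day 0 and was at 0 in roots. These neighbours were singled out after their values were seen.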

How the data were processed

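The deposited table holds raw gene counts of all 15 libraries, whole numbers that the authors left without normalization, and 0 columns outside these samples. Per the submitters' processing notes, the tools named, with no role or order, include Trim Galore (version 0.6.7), HISAT2 (version 2.2.1), StringTie (version 2.2.3) and featureCounts (version 2.0.3). No source used here gives the genome build, annotation version, strand setting or handling of multiply mapped reads, so near-identical, overlapping and antisense genes are uncertain. None of the 269207 identifiers matched a RefSeq name table of 155467 genes, and no sequences are shown.

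The genes, the comparisons and the lists were chosen with earlier results of these data known. CPM in the text are plain, on the column sums. Tests used edgeR (version 4.0.16, R 4.3.3) with filterByExpr, TMM factors, glmQLFit and glmQLFTest: the 12 leaf libraries together (62841 genes, biological coefficient of variation 0.343) and the 6 libraries of day 11 (67922 genes, 0.181), with Benjamini-Hochberg adjustment over all genes tested and a call at an adjusted p under 0.05. Each SE was derived from the F statistic as the absolute log2 fold change over its root. The test was tried on simulated counts first. That the 3 libraries of a group come from separate plants is given by the plant numbers of the design text, and p-values measure the spread between these libraries.

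Genes named by rule are the 10 highest on day 1, the 10 with the highest ratio, 3 on each side of the ratio limit, up to 3 called risers and fallers per comparison with one direction in all 3 plants, the 5 highest and 3 most abundant absent ones in roots, and those in runs of neighbours; the others, which are the genes at like places on related chromosomes and the adjoining gene beside TraesCS1B02G170200, were chosen after their values were seen. Libraries with the same number were taken as the same plant, because the design text names 3 plants whose numbers recur in the library names. The main fits held the group alone, so their p-values are unpaired, and the plant entered the tests in the block alternative only. Deviations of same-plant leaf libraries correlated at -0.15 to 0.24 (18 pairs, median 0), and those of different plants at -0.33 to 0.28 (36 pairs, median -0.01). Alternatives were DESeq2 1.42.0, its median-of-ratios factors, no filter, the plant as a block, plain library sizes (added after seeing the data), each plant left out, single libraries left out and other limits of the selection.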

Additional observations from a re-analysis of the deposited data

How the results depend on the processing

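The number of selected genes depends on its limits: 247 with TMM-scaled CPM (121 of the 123 among them), 36 at a ratio of 2, 212 at a mean of 1 CPM, 194 without plant 1 of day 0, 155 without plant 3 of day 7, and 248 to 308 without a plant. Genes listed in roots number 48 at 1 CPM, 29 at 5 CPM and 79 at 0.1 CPM. Day 1 against day 0, 43 higher calls became 94 with DESeq2, 21 with the replicate block, 75 with the 6 libraries compared alone, 21 without plant 1 of day 0, 85 without plant 3 of day 7 and 0 to 6 without a plant. Over all genes tested, 477 higher calls became 2085, 195, 392, 509, 1000 and 0 to 88 in these fits, in that order. Day 7 against day 0, 0 higher calls became 3 with DESeq2, and 40 lower calls became 17 with the 6 libraries alone, 83 without plant 3 of day 7 and 3 to 70 without a plant. Over all genes tested, 9006 higher calls became 11025 with DESeq2, and 8726 lower calls became 4603, 10762 and 1316 to 9366. Day 11 leaves against day 0, 0 higher calls became 1 with plain library sizes and 1 without plant 3 of day 7, where the 13560 over all genes tested became 23447 and 14421. Day 11 against day 7, 1 higher call became 2 with DESeq2, 2 with the 6 libraries alone, 12 without plant 3 of day 7 and 0 to 6 without a plant, and 31 lower calls became 19 with the 6 libraries alone, 30 without plant 1 of day 0 and 10 to 15 without a plant. Over all genes tested, 5490 higher calls became 7100, 7661, 6322 and 984 to 4946, and 8277 lower calls became 6980, 8497 and 2373 to 5938. The replicate block moved no other count of calls by over 1.5 times (36 lower on day 7, 73 on day 11, 27 on day 11 against day 7, and 25 higher and 76 lower in roots). Fits without a plant have fewer libraries; the cause of the other shifts was not tested. Of the recomputed counts, 84 stayed within 1.5 times, some of them listed above and some at 0 before and after, and 35 moved further. The 0 lower calls of day 1 against day 0 follow from the criteria, so they show no stability. Among the recomputed fold changes of named genes 149 kept their call, 8 lost it and 0 changed sign. Depth limits what can be said of genes at 0 in roots to levels under 0.0433 CPM, and 3 plants a group limit every test.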

Other observations

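Low-confidence gene models were not selected, but 5 of them met the same values. TraesCS3A02G004400LC was the sharpest, with 0 counts on day 0, a mean of 8.998 CPM on day 1, 0.593 CPM on day 7 and 0.0163 CPM in the day 11 leaves, a ratio of 3.93, and 7.27 CPM in roots. TraesCS6B02G530800LC, at 6.84 CPM on day 1 and 0 in the day 11 leaves, was higher in roots at 25.5 CPM. TraesCS1D02G499200LC, TraesCS5B02G141000LC and TraesCSU02G003400LC averaged 10.6, 19.9 and 8.99 CPM on day 1 and at most 1.76 CPM in roots. As with the high-confidence genes, root levels thus ran from below to above those of the day 1 leaf.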
